A study of Capra hircus with 4 samples.

Results

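PROX1, LYVE1, MMRN1, CCL21, FLT4 and RELN are 6 genes used to recognise the lining of lymphatic vessels. They were taken by symbol from the 27137 genes in the feature list of a single-cell RNA survey of goat pancreas, and each symbol matched 1 row. The rule names symbols and uses no measured value, but the genes were chosen with earlier results of these data known.

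Lymphatic vessels drain tissue fluid and carry immune cells to lymph nodes, and in the pancreas they run beside the ducts and larger blood vessels. Their endothelium is set apart from blood endothelium by the transcription factor PROX1, which maintains the expression of FLT4, the receptor for the growth factors VEGFC and VEGFD. Initial lymphatics, the blind-ended vessels that take up fluid, carry the hyaluronan receptor LYVE1 and release the chemokine CCL21, which draws CCR7-bearing dendritic cells and T cells. MMRN1 is a matrix glycoprotein, and RELN (reelin) is a secreted glycoprotein, both of which lymphatic endothelium makes.

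The tissue came from 4 female Liuyang black goats of a commercial herd, with no transgene and no treatment. A pair of goats was 10 days old, at the stage before rumination and named the control in the design, and the other pair was 6 months old and ruminating. The labels describe the goats of each age as twins. Fresh pancreas was digested with enzymes, red cells and dead cells were removed, and the suspension went onto the 10x platform, which counts the 3′ ends of transcripts by unique molecular identifiers (UMIs).

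Each barcode ends in the number of its library, 1 to 4, and the labels do not say which goat a number stands for. Age is therefore not compared here, and values are given per library with no test. The libraries held 43297855 to 82817057 UMIs, and 2842, 3323, 3998 and 3084 cells were called in libraries 1 to 4, with medians of 6187.5 to 8932 UMIs a cell. Of 13230 barcodes called as cells, 17 occurred in more than 1 library, 1 of which was a lymphatic cell. Levels are UMIs of the gene per 1000000 UMIs of the same class and library (CPM). Intervals are exact 95% intervals that cover counting error only. Levels are compared between cells for 1 gene at a time, since 3′ counts of different genes need not be captured equally well.

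The cells were clustered with all 6 genes left out. One cluster of 195 cells was called lymphatic endothelial-like from other markers, of which 16 of 20 were raised, against 0 of 22 blood vessel markers. Another cluster of 149 cells was called blood vessel endothelial-like, with 14 of 22 blood vessel markers raised and 0 of 20 lymphatic ones. These markers were compared between the 2 endothelial clusters only, so a marker raised in 1 could not be raised in the other. The lymphatic cells numbered 91, 35, 15 and 54 in libraries 1 to 4, or 3.20%, 1.05%, 0.375% and 1.75% of the called cells. The blood vessel cells numbered 44, 69, 30 and 6. The order of the classes thus differed between libraries, with more lymphatic than blood vessel cells in libraries 1 and 4 and fewer in libraries 2 and 3. These shares are shares of recovered cells and can be set by the digestion. The labels list endothelial cells as 1 type, so the split was made here.

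PROX1, the lymphatic identity factor, was measured at 1038, 1168, 1779 and 1451 CPM in the lymphatic cells of libraries 1 to 4. In the blood vessel cells of libraries 1 to 3 its level was 0, 33.4 and 3.95 CPM, from 0, 25 and 1 UMIs. The lowest lymphatic value therefore lay far above the highest blood vessel value. PROX1 was also seen outside the endothelium, as described further on.

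FLT4, the VEGFC and VEGFD receptor, was at 399, 347, 491 and 452 CPM in the lymphatic cells of libraries 1 to 4. Blood vessel cells of libraries 1 to 3 held 25.5, 10.7 and 7.89 CPM, from 7, 8 and 2 UMIs. Blood vessel cells were the class with the second highest median. Every other named class had a median of at most 1.52 CPM. Of all FLT4 UMIs in called cells, 92.9% lay in the lymphatic cells and 2.33% in the blood vessel cells.

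LYVE1, the hyaluronan receptor, was at 2372, 1222, 789 and 3882 CPM in the lymphatic cells of libraries 1 to 4, a spread wider than that of PROX1, FLT4 or RELN. Macrophage-like cells held 523, 474, 838 and 485 CPM. The ranges of these 2 classes met in library 3, where lymphatic cells had 789 CPM (640 to 961) and macrophages 838 CPM (758 to 924). Blood vessel cells held 14.6, 40.1 and 55.3 CPM in libraries 1 to 3, which is above every other named class and far below both of these. Lymphatic cells carried 79.1%, 63.3%, 17.3% and 64.8% of the LYVE1 UMIs of called cells in libraries 1 to 4, and macrophages 19.5%, 5.55%, 70.9% and 32.7%. Library 3 thus had most of its LYVE1 in macrophages. In library 2 acinar-like cells, at 24.1%, held a larger share than macrophages, from 217 UMIs in 1259 cells against 50 UMIs in 15 macrophages. The level of those acinar-like cells was 7.14 CPM, against 474 CPM in the macrophages of library 2. It also lay below the 19.9 CPM in library 2 barcodes of very few UMIs, which hold free RNA, but above stellate-like cells, which had at most 1.44 CPM in any library.

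CCL21, the chemokine ligand of CCR7, was at 18620, 12830, 5714 and 15312 CPM in the lymphatic cells of libraries 1 to 4. Library 3, with 15 lymphatic cells, was the lowest. Blood vessel cells held 3, 2 and 0 UMIs in libraries 1 to 3. Of the 26403 CCL21 UMIs of called cells, 96.9% lay in the lymphatic cells. Barcodes of 10 to 100 UMIs, which hold free RNA, had 198, 75.6, 17.6 and 42.5 CPM of CCL21, whereas stellate-like cells, which were taken as a class that lacks the gene, had 4.31, 2.82, 0.241 and 0.988 CPM.

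The 2 secreted glycoproteins were as narrowly placed. MMRN1 was at 3240, 2746, 1843 and 2727 CPM in the lymphatic cells of libraries 1 to 4, and blood vessel cells of libraries 1 to 3 held 0, 1 and 0 UMIs. RELN was at 639, 491, 427 and 554 CPM in lymphatic cells and at 0, 3 and 0 UMIs in blood vessel cells. Lymphatic cells held 97.0% of the MMRN1 UMIs and 93.2% of the RELN UMIs. No other named class had a median above 1.41 CPM for MMRN1 or 1.06 CPM for RELN.

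**Figure D1:**
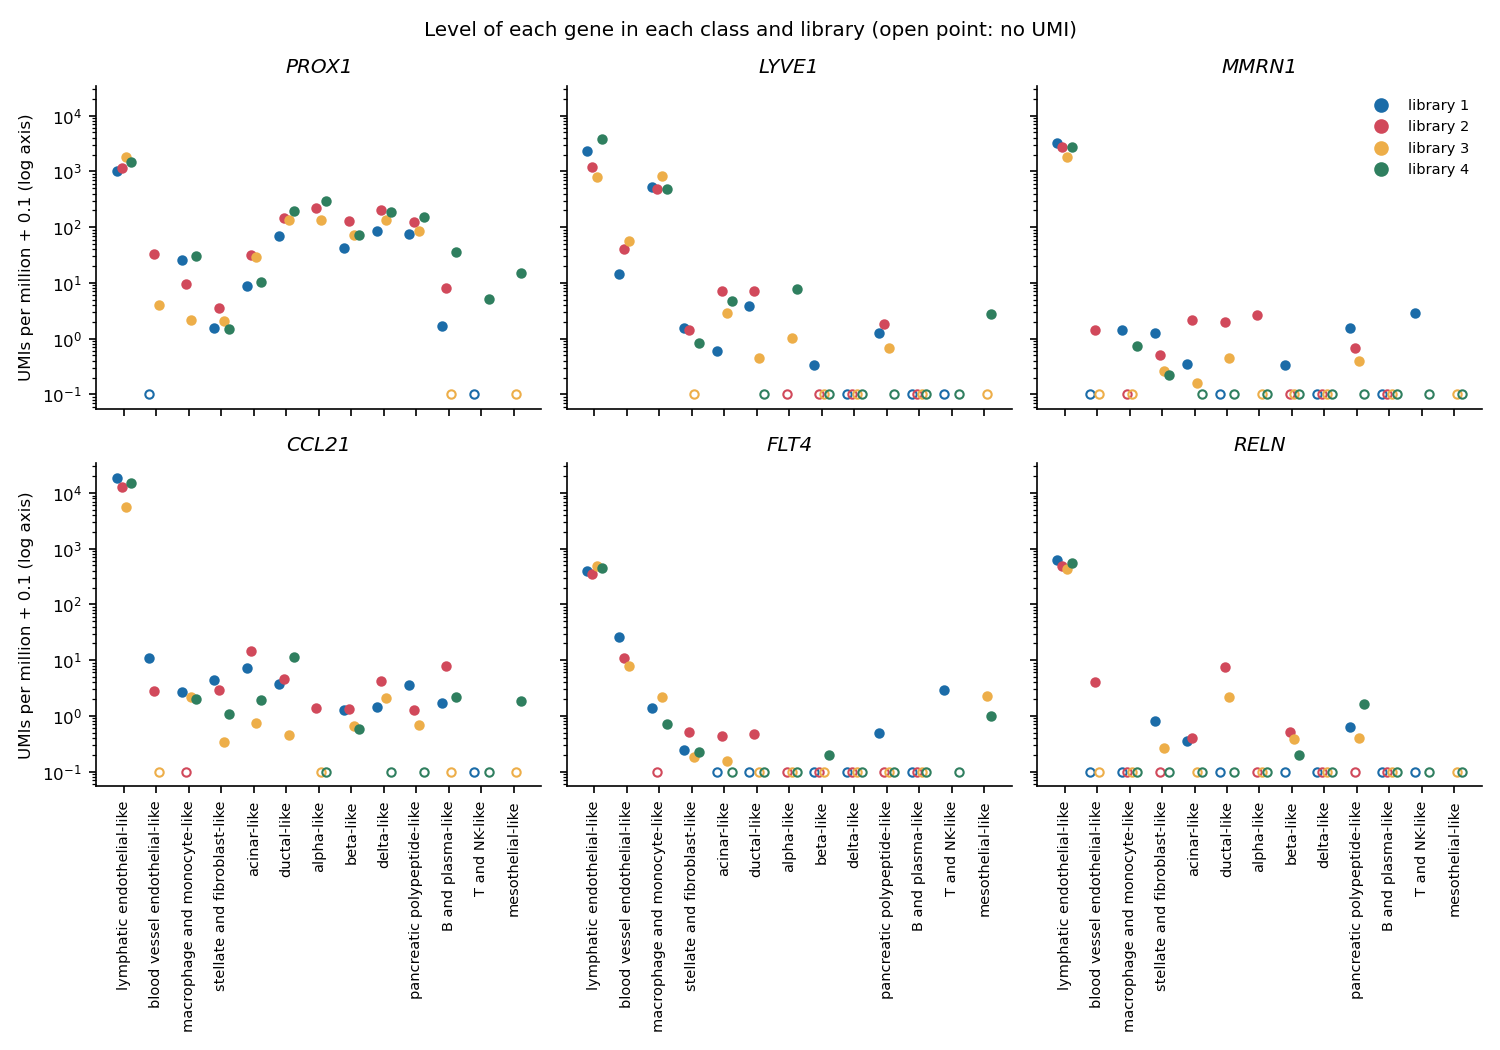
Level of each of the 6 genes (CPM plus 0.1, log axis) in each class with at least 10 cells, with 1 point per library and open points where no UMI was seen. All 6 genes are highest in the lymphatic endothelial-like cells in each library except LYVE1 in library 3, PROX1 also has points between 42.8 and 297 CPM in ductal and endocrine classes, and LYVE1 has a second group of points at 474 to 838 CPM in macrophages.

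The genes were carried by the same cells. After each cell was thinned to 3000 UMIs, which left out no cell, 162 of 195 lymphatic cells (83.1%) held a UMI of at least 4 of the 6 genes and 69 held all 6. The share with at least 4 was 83.5%, 77.1%, 80.0% and 87.0% in libraries 1 to 4. No lymphatic cell held none. Among the 149 blood vessel cells, 125 held none, 22 held 1 and 0 held 3 or more, and among the 392 macrophages 0 held 3 or more.

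Gene by gene, thinned lymphatic cells held a UMI in 93.8% of cells for MMRN1, 88.2% for PROX1, 79.0% for LYVE1, 76.4% for CCL21, 71.3% for RELN and 63.6% for FLT4. Without thinning, these shares were 96.4%, 95.4%, 84.1%, 80.5%, 89.2% and 82.6%. In thinned stellate-like cells the highest of the 6 shares was 0.659%, for PROX1. The median depth before thinning was 5527 to 9990 UMIs in lymphatic cells and 4908 to 8054.5 in stellate-like cells.

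Cells outside the endothelium that held several of the genes were few and deep. At least 3 of MMRN1, CCL21, FLT4 and RELN were found in 10 of 12903 such cells, which had a median of 20859.5 UMIs. Those 10 cells held a median of 6.5 of 15 general endothelial markers, against 10 in lymphatic cells and 1 in other cells. Whether they were doublets was not tested.

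**Figure D2:**
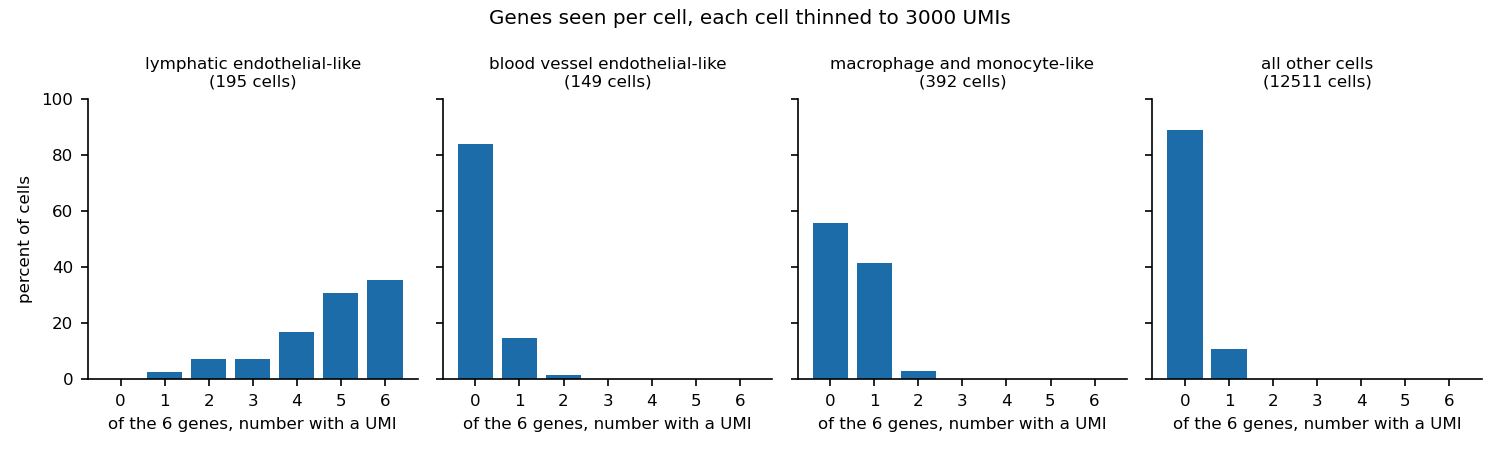
Percent of cells (vertical axis) by how many of the 6 genes had a UMI (horizontal axis), each cell thinned to 3000 UMIs, in 4 groups of cells. Lymphatic cells peak at all 6 genes with 69 of 195 cells, whereas 125 of 149 blood vessel cells and 218 of 392 macrophages hold none.

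Lymphatic and blood vessel cells were then compared within each library that held at least 10 of both, which were libraries 1 to 3. A gene was called higher when the ratio of CPM + 1 reached a log2 value of 1 in every such library with at least 20 lymphatic UMIs in each. All 6 genes were called higher, where 11.0% of the 994 genes that could be called so were. By median log2 ratio, CCL21, MMRN1, RELN and PROX1 ranked 1 to 4 of the 109 genes called, FLT4 ranked 20 and LYVE1 ranked 21.

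Summed over the 3 libraries, CCL21 was 3895-fold higher in lymphatic cells (counting interval 1669 to 11998) and MMRN1 3733-fold (670 to 147480, on 1 blood vessel UMI). RELN was 240-fold higher (81.9 to 1168), PROX1 56.8-fold (38.6 to 87.3), LYVE1 47.8-fold (36.0 to 65.1) and FLT4 29.2-fold (18.1 to 50.5). Without library 2, which held 25 of the 26 blood vessel UMIs of PROX1, PROX1 was 608-fold higher (109 to 24038), MMRN1 at least 533-fold and RELN at least 107-fold. Without library 1, LYVE1 was 25.7-fold higher (19.0 to 35.8) and RELN 159-fold (54.0 to 777). The intervals of CCL21 and FLT4 do not meet, so the contrast between the vessel types was unequal among the 6 genes.

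Single libraries varied. Where blood vessel cells of a library held no UMI, the fold is a lower bound against 3 counts in that library: at least 95.1-fold for PROX1 in library 1, at least 297-fold and 156-fold for MMRN1 in libraries 1 and 3, at least 483-fold for CCL21 in library 3, and at least 58.6-fold and 36.0-fold for RELN in libraries 1 and 3. The log2 ratios of PROX1 were 10.02, 5.09 and 8.49 in libraries 1 to 3, those of LYVE1 were 7.25, 4.90 and 3.81, and those of FLT4 were 3.92, 4.90 and 5.79. The median of PROX1 was 8.49, and became 6.79, 9.26 and 7.55 without library 1, 2 or 3. That of LYVE1 was 4.90, and became 4.35, 5.53 and 6.07 without library 1, 2 or 3. That of RELN was 8.74, and became 7.68, 9.03 and 7.97 without library 1, 2 or 3. Library 2 was the lowest of the 3 for PROX1, RELN and MMRN1.

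Against all cells outside the endothelium, which could be done in 4 libraries, all 6 genes were again called higher in lymphatic cells, where 29.8% of the 986 genes that could be called so were. The log2 ratios of PROX1 were 4.79, 4.57, 5.41 and 5.03 in libraries 1 to 4, the lowest of the 6 genes in each library. Blood vessel cells against the same cells had 32.4% of 1751 genes called higher, and none of the 6 genes reached 20 UMIs in the blood vessel cells of each library, so none could be called. FLT4 in that comparison had log2 ratios of 4.43, 3.18 and 3.03 in libraries 1 to 3, on the few UMIs given above.

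**Figure D3:**
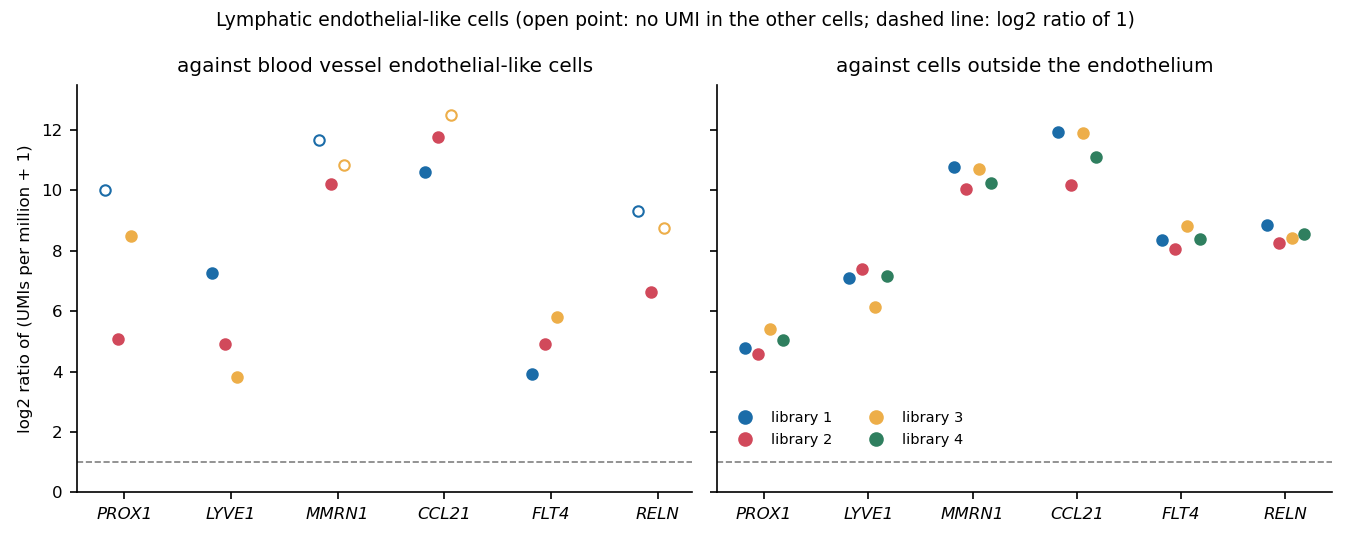
Log2 ratio of CPM + 1 of each gene, lymphatic endothelial-like cells over blood vessel endothelial-like cells (left, libraries 1 to 3) and over cells outside the endothelium (right, libraries 1 to 4), with 1 point per library. All points lie above the dashed line at a log2 ratio of 1, and open points, where the other cells held no UMI, depend on the added 1 CPM.

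Within the lymphatic cells, the 6 genes were spread unequally. In library 1, CCL21 per 10000 UMIs of a cell ran from 15.1 at the lower quartile to 103 at the median and 289 at the upper quartile, and 15 of 91 cells held none. PROX1 in the same cells ran from 4.22 to 7.43 and 12.9. Across cells, LYVE1 and CCL21 levels correlated at Pearson r 0.66, 0.73 and 0.84 in libraries 1, 2 and 4 (91, 35 and 54 cells), and MMRN1 and CCL21 at 0.70, 0.63 and 0.67. PROX1 and CCL21 had r of -0.06, -0.16 and -0.33. Cells of a library share its depth and free RNA, and these coefficients are descriptions.

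Sub-clusters of the lymphatic cells, made again without the 6 genes, placed that spread. Of 8 sub-clusters, 2 held cells of every library and the rest lay mostly in 1 or 2 libraries. One of the 2, with 18 cells (8, 6, 3 and 1 in libraries 1 to 4), had EDN1 (endothelin 1), ADGRG6 and VWF (von Willebrand factor) among its leading genes and is called the EDN1 group. The other, with 22 cells, was led in part by ADM (adrenomedullin, a peptide that supports lymphatic growth), NRGN and SBSPON, and is called the ADM group. The list of its leading genes, made over all 22 cells, also held the endocrine genes PPY, INS, SCG3, SCG5 and CHGA. In 4 of its cells, endocrine markers made up 6.52% or more of the UMIs, against at most 0.783% in every other lymphatic cell. These 4 cells were left out below, which leaves 6, 4, 3 and 5 cells, and the values with them are given beside the result they touch.

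The EDN1 group had almost no LYVE1 and little CCL21. LYVE1 in it was at 148, 0, 48.9 and 0 CPM in libraries 1 to 4, against 2967, 1580, 1124 and 4527 CPM in the lymphatic cells outside both groups. CCL21 was at 991, 275, 196 and 0 CPM, against 23394, 16937, 10253 and 17912 CPM. Both genes were lower in the EDN1 group in each library, where library 4 rests on 1 cell. MMRN1 was at 1581, 1885, 2054 and 98.6 CPM against 3841, 3192, 2282 and 3116 CPM, and FLT4 at 190, 84.7, 538 and 98.6 CPM against 474, 409, 588 and 485 CPM. MMRN1 and FLT4 were also lower in libraries 1, 2 and 4, whereas in library 3 the counting intervals of both genes overlapped between the groups. RELN was at 464, 593, 636 and 444 CPM against 761, 519, 553 and 609 CPM. Its counting intervals overlapped in each library, so no direction is read from it.

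Summed over libraries, the ADM group was high in PROX1 and low in the other 5 genes. PROX1 in it was at 2317, 3554, 3480 and 2747 CPM in libraries 1 to 4, against 968, 888, 847 and 1360 CPM in the cells outside both groups and 590, 572, 587 and 591 CPM in the EDN1 group. Every library thus had its highest PROX1 in the ADM group. The EDN1 group had the lowest values, but its counting intervals overlapped those of the cells outside both groups in libraries 2 and 3. In library 4 its value rests on 1 cell. LYVE1 was at 239, 278, 696 and 135 CPM in the ADM group and CCL21 at 221, 42.8, 2458 and 0 CPM. Each lay below the other cells of the same library, though the LYVE1 intervals overlapped in library 3. RELN summed over libraries was at 163 CPM (110 to 233) in the ADM group, against 646 CPM (603 to 691) outside both groups. MMRN1 was at 1004 CPM (865 to 1160) against 3403 CPM (3303 to 3505), and FLT4 at 244 CPM (178 to 327) against 464 CPM (428 to 503). By library, the FLT4 intervals overlapped in libraries 2, 3 and 4. Summed endocrine markers were at 2834 CPM in the ADM group without the 4 cells and at 1131 CPM outside both groups, and the median depth was 8084.5 against 6338 UMIs a cell. Their part in these values was not tested. With the 4 cells of high endocrine share, the ADM group's summed PROX1 was 2505 in place of 3008 CPM, and its CCL21 1110 in place of 689 CPM. Library 3, which had the highest PROX1 and the lowest LYVE1 and CCL21 over all lymphatic cells, had 6 of its 15 lymphatic cells in the EDN1 and ADM groups. Among its 9 other lymphatic cells PROX1 was at 847 CPM (627 to 1120, on 49 UMIs), an interval that overlaps those of libraries 1 and 2. LYVE1 and CCL21 in those 9 cells, at 1124 and 10253 CPM, were still the lowest of the 4 libraries. The part of the 2 groups in the levels of library 3 was not tested.

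**Figure D4:**
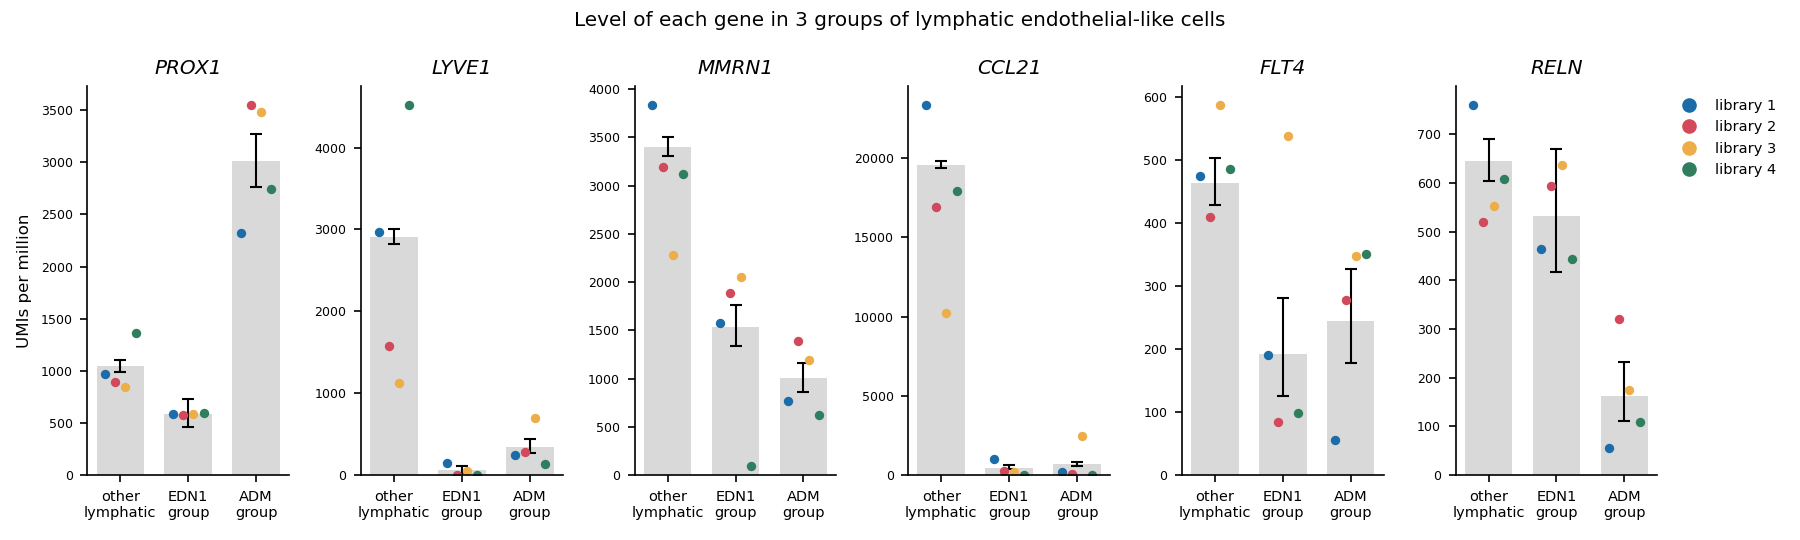
Level of each gene (CPM, vertical axis, scaled per panel) in lymphatic cells outside both groups (155 cells), the EDN1 group (18 cells) and the ADM group (18 cells). Bars are sums over libraries with their exact 95% counting interval and points are libraries. LYVE1 and CCL21 are low in both groups, and PROX1 is at 3008 CPM in the ADM group against 1044 CPM in the cells outside both.

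Genes listed for lymphatic valves and collecting vessels also differed between these groups. They had entered the clustering, so their values describe the groups and test nothing. FOXC2, a transcription factor needed for valves, was at 163 CPM (110 to 233) in the ADM group, 44.3 (16.3 to 96.5) in the EDN1 group and 31.8 (22.8 to 43.2) outside both. CLDN11, a tight junction protein, was at 1140, 207 and 116 CPM in the same order. GJA4, a gap junction protein, was at 1412, 2275 and 712 CPM, whereas GJA1, another gap junction protein, was at 92.3, 569 and 425 CPM. EFNB2, an ephrin of vessel walls, was highest in the EDN1 group, at 923 CPM (768 to 1100) against 330 (299 to 363) outside both. ADM itself was at 2492, 118 and 66.0 CPM. At a sub-cluster resolution of 1.2 both groups had the same size and levels. At 0.4 the ADM group kept a PROX1 level of 2676 CPM over 21 cells, but the genes of the EDN1 group led a cluster of 42 cells with LYVE1 at 1202 CPM, so the EDN1 group was not separate.

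PROX1 was the gene of the 6 with most of its UMIs outside the endothelium. Of the PROX1 UMIs in called cells, lymphatic cells held 42.5%, 18.9%, 10.9% and 29.1% in libraries 1 to 4, and endocrine-like cells 50.7%, 32.0%, 38.3% and 53.7%. Acinar-like cells held 2.08%, 32.7% and 0.558% in libraries 1, 2 and 4 and 508 of 2036 UMIs in library 3, and ductal-like cells 2.26%, 13.4%, 18.9% and 1.72% in libraries 1 to 4. Acinar-like cells thus held a large share in libraries 2 and 3 only. PROX1 is known as a factor of pancreas development. Among endocrine classes, alpha-like cells had a median of 218 CPM (135 to 297 over 3 libraries), delta-like cells 161 CPM (84.9 to 206 over 4), pancreatic polypeptide-like cells 104 CPM (76.5 to 149) and beta-like cells 71.9 CPM (42.8 to 128). Ductal-like cells had a median of 140 CPM (70.2 to 194). Classes next to each other in this order overlap, whereas the alpha-like range lies above the beta-like one. None reaches the lowest lymphatic value of 1038 CPM.

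PROX1 in these classes was set against the background measured in the same libraries. Stellate-like cells held 1.44, 3.49, 2.01 and 1.36 CPM of PROX1 and a PROX1 UMI in 0.659% of thinned cells, against 38.1% of alpha-like, 33.6% of delta-like, 36.3% of ductal-like and 18.9% of beta-like cells. Barcodes of 10 to 100 UMIs held 23.4, 60.8, 61.5 and 9.18 CPM of PROX1. Alpha-like, delta-like, pancreatic polypeptide-like, beta-like and ductal-like cells were above those values in every library where at least 10 of them were called. Endocrine-like cells of no subtype were above in library 2, at 108 CPM, and below in library 3, at 57.8 CPM. Acinar-like cells, at 8.80, 31.0, 29.3 and 10.1 CPM, were below the free RNA in libraries 1 to 3 and near it in library 4, and 8.56% of them held a UMI after thinning. They were above the stellate-like cells in each library, so the 2 backgrounds place acinar-like PROX1 differently.

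RELN outside lymphatic cells was sparse. Ductal-like cells held 26 of its 1011 UMIs, unnamed cells 12, acinar-like and endocrine-like cells 10 each, stellate-like cells 7, blood vessel cells 3 and unnamed myeloid cells 1. Ductal-like cells of library 2 held 20 RELN UMIs (7.44 CPM, 4.54 to 11.5), and those of library 3 held 6 (2.12 CPM, 0.776 to 4.60). In library 2, 10 of the 20 lay in 6 of the 12 cells of the duct cluster led by LGALS2, PIGR and TFF3, at 68.4 CPM (32.8 to 126). The same cluster had 3 RELN UMIs in the 15 cells of library 3, at 17.9 CPM (3.69 to 52.2), and 0 in the 57 cells of library 1.

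LYVE1 in macrophages was called higher than in cells outside the endothelium and macrophages, where 35.7% of the 748 genes that could be called so were. The log2 ratios were 8.05, 6.25, 8.57 and 7.37 in libraries 1 to 4. The median was 7.71, and became 7.37 without library 1 or 3 and 8.05 without library 2 or 4. A LYVE1 UMI was present in 42.9%, 40.0%, 47.6% and 38.5% of thinned macrophages in libraries 1 to 4, against 79.0% of lymphatic cells and 0.140% of stellate-like cells. The macrophages held 6 CCL21, 2 MMRN1, 3 FLT4 and 0 RELN UMIs in all. Of PROX1 they held 70 UMIs, at 26.0, 9.48, 2.08 and 30.0 CPM in libraries 1 to 4, which is above the free RNA in libraries 1 and 4 and below it in libraries 2 and 3.

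LYVE1 divided the macrophages. Sub-clusters made without the 6 genes ranged from 1862 CPM (1743 to 1988) to 0 CPM. The highest sub-cluster, of 81 cells, was led by AOC1, SIGLEC1 and CCL24, lay in libraries 1 and 4 (2339 and 1775 CPM) and held a LYVE1 UMI in 93.8% of thinned cells. It also had the highest PROX1 of the 7, at 53.6 CPM (35.0 to 78.6). A second sub-cluster, of 46 cells, was led by SPP1, INS and VCAN, lay mostly in library 3 and had 737 and 1271 CPM in libraries 2 and 3. Another, of 84 cells, was led by GPNMB with exocrine genes such as CPB1 and PRSS2 and had 526 CPM (464 to 596). The sub-clusters led by GNLY and DNASE1L3 (58 cells) and by genes that include LAMP3 and FLT3 (44 cells), the latter a pair of dendritic cell genes, held 1 and 0 LYVE1 UMIs. That led by FCN1, a monocyte gene, had 47.3 CPM.

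**Figure D5:**
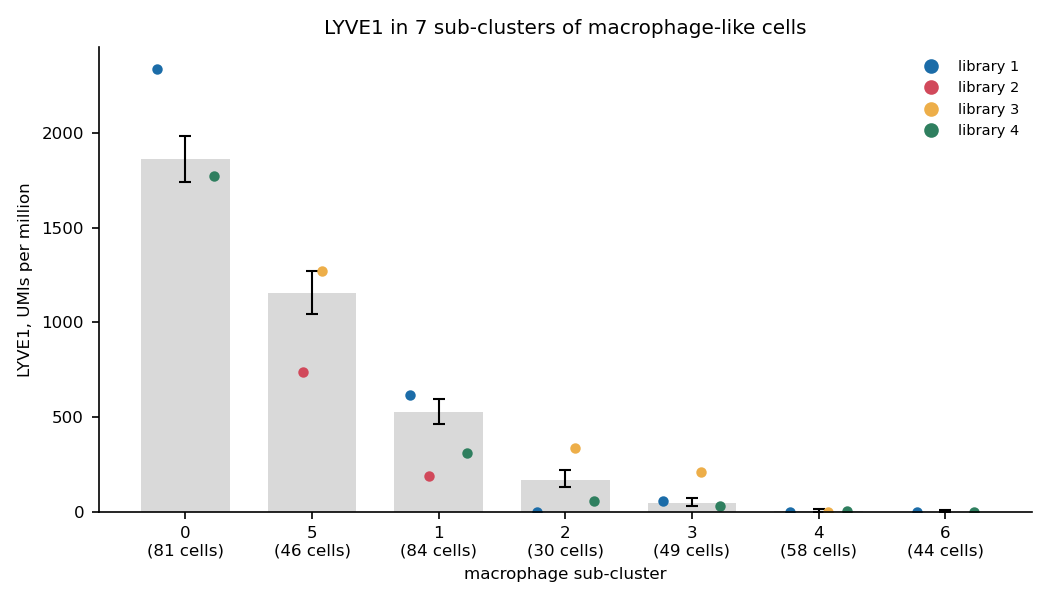
LYVE1 level (CPM) in 7 sub-clusters of the 392 macrophage and monocyte-like cells, ordered by level. Bars are sums over libraries with exact 95% counting intervals and points are libraries with at least 3 cells. The level falls from 1862 CPM in sub-cluster 0 to 0 CPM in sub-cluster 6.

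Macrophages with and without a LYVE1 UMI after thinning were compared in libraries 1, 3 and 4. No cell of the sub-cluster led by GNLY or of that with LAMP3 and FLT3 held a LYVE1 UMI after thinning, so both lie wholly on the side without, and the part of this makeup in the differences was not tested. Of 14 genes listed for resident macrophages, 10 could be compared and 4 were called higher with LYVE1, where 6.17% of 1557 genes were. These were CD209 (median log2 ratio 2.77), a lectin, F13A1 (2.66), a coagulation factor subunit, MAF (2.55), a transcription factor, and MRC1 (1.99), the mannose receptor. C1QA, C1QB and C1QC, the complement subunits, had medians of 0.54, 0.55 and 0.50 and were not called. Of 5 antigen presentation genes 3 could be compared, and CD74, the MHC class II invariant chain, was called lower at -2.57, where 2.71% of 2064 genes were. Of 10 inflammatory genes 3 could be compared and 0 were called. The median over the compared resident genes was 0.94, against -0.05 over all genes compared.

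Genes that act with the 6 were next described by class. A gene could be compared when, in each library, either endothelial class held at least 20 UMIs. Of 2131 such genes, 109 were called higher in lymphatic cells and 145 lower. NRP2, NR2F2, TBX1, PDPN and CLDN11 were among the markers that named the lymphatic cluster, and KDR and EFNB2 among those of the blood vessel cluster. Their calls thus describe the clusters and test nothing. Between lymphatic and blood vessel cells, 2 of 8 growth factor and processing genes could be compared and both were called higher: ADM (median log2 ratio 4.62) and ANGPT2 (4.55), a ligand of the TEK receptor. Lymphatic cells held 518 and 219 UMIs of them and blood vessel cells 18 and 14. Over 4 libraries, 459 of the lymphatic ADM UMIs lay in the 18 cells of the ADM group, 57 in the 4 cells of high endocrine share and 85 in the 155 cells outside both groups, at 66.0 CPM. Of 10 receptors and coreceptors 9 could be compared, and 8 of these were not called. NRP2, the coreceptor of FLT4, was called higher at 1.90, where 11.0% of the 994 genes that could be called so were. KDR, the other VEGFC receptor, was not called, at -0.92 (-1.23 to -0.60). The median over the 9 was 0.35, against 0.00 over all genes compared.

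VEGFC and VEGFD, the ligands of FLT4, were highest in stellate-like cells. VEGFC was there at 127, 89.0, 59.1 and 123 CPM in libraries 1 to 4, against 1.45, 12.9, 16.1 and 2.53 CPM in lymphatic cells. VEGFD was there at 204, 137, 93.3 and 264 CPM, against 2.90, 15.0, 0 and 2.53 CPM. Blood vessel cells, which had the second highest FLT4 and the highest KDR (a median of 478 CPM), had VEGFC at 21.8, 49.5 and 51.3 CPM and VEGFD at 14.6, 13.4 and 11.8 CPM in libraries 1 to 3. CCBE1, which helps to activate VEGFC, had its highest median in stellate-like cells, at 21.2 CPM.

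Of 11 lymphatic transcription factors 5 could be compared, and TBX1 (7.72, with 277 lymphatic and 0 blood vessel UMIs) and MAF (4.45) were called higher. SOX18 (0.68) and NR2F2 (0.87), which act upstream of PROX1, were not called. Lymphatic cells held 1114 and 884 UMIs of them and blood vessel cells 742 and 425. Of 6 genes of the CCL21 axis, 4 were matched and 1 could be compared: CXCL12, another chemokine, was called lower in lymphatic cells at -5.68, where 8.28% of 1751 genes were. CCL19, the other ligand of CCR7, had 0 UMIs in lymphatic cells. CCR7 was highest in B and plasma-like cells, at 15.7, 0, 82.0 and 86.4 CPM in libraries 1 to 4, and was at 0 UMIs in both endothelial classes.

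Of 4 genes of the reelin axis, ITGB1 alone could be compared and was not called, at -0.03. The reelin receptors VLDLR and LRP8 had their highest medians in endocrine classes, at 36.6 and 29.1 CPM, against 4 and 2 UMIs in the lymphatic cells of libraries 1 to 3. Of 10 hyaluronan and adhesion genes 2 could be compared. PDPN, podoplanin, was called higher at 6.17, and MMRN2, the blood endothelial relative of MMRN1, was called lower at -5.41. MMRN1 and MMRN2 thus lay on opposite sides of the comparison. Of 12 valve and collecting vessel genes 4 could be compared, and CLDN11 (4.85), GJA1 (3.07) and GJA4 (2.58) were called higher. EFNB2 was not, at 0.40.

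The other genes with the highest median ratios between the vessel types were PTN (7.97), TC2N (7.92), TBX1, NR2F1 (7.65), SBSPON (7.20) and RAB11FIP1 (7.09) on the lymphatic side. On the blood vessel side they were CD320 (-9.08), SERTM1 (-8.82), PLVAP (-8.43), CD36 (-8.42), TM4SF18 (-8.35), AQP1 (-8.07), WFDC1 (-8.00), FAM167B (-7.93), RGCC (-7.85) and NRP1 (-7.57). PLVAP forms the diaphragms of fenestrated capillaries and CD36 takes up fatty acids. All of these genes helped to form the clusters.

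Likeness of pattern was measured as Pearson's r of log2(CPM + 1) over 48 sums of a class in a library, among 15803 genes. The sums of 1 library share its free RNA, and r is a description. MMRN1 was most like COL23A1 (0.982), IRX5 (0.980) and ZIC2 (0.972). CCL21 was most like COL23A1 (0.954), MMRN1 (0.953) and IRX5 (0.952), and RELN most like MMRN1 (0.969), IRX5 and COL23A1 (both 0.966). FLT4 was most like IRX3 (0.958), MFSD4A (0.952) and GJD3 (0.935). LYVE1 was most like SLCO2B1 (0.929), LOC108638604 (0.898) and TNFAIP8L3 (0.891). PROX1 had the least alike neighbours, which were DMTN (0.822), LOC100861326 (0.799) and PLXNB1 (0.792).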

How the data were processed

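One deposited matrix holds the UMI counts of 4 aggregated libraries for all barcodes, unfiltered. Its writer was Cell Ranger 5.0.1 per the file headers. Version 3.1.0 of that tool and Seurat version 3.1.1 appear in the submitters' processing notes. The genome build is not given in the sources used here, so no coordinates or sequences are printed. All 6 gene IDs matched RefSeq's ARS1.2 table. A barcode was called a cell above 1/10 of the 99th percentile of UMIs among the top 8000 barcodes of its library, with at least 500 genes. Scrublet removed 48, 3, 109 and 3 doublets in libraries 1 to 4; it marked under 0.5% of cells in libraries 2 and 4, where doublets were scarcely treated. Cells were clustered in scanpy 1.11.5 (2000 variable genes, 30 components, 15 neighbours, Leiden resolution 1, no batch correction) and named from marker lists, with at least 3 markers raised 2-fold and seen in 10% of cells. Names ending in "-like" were rebuilt here. Sub-clusters used 1000 variable genes, 15 components and resolution 0.8 (lymphatic, blood vessel) or 0.6 (macrophages).

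The 6 genes and the lists were chosen with earlier results of these data known. The naming thresholds and the sub-clusters were set after seeing the data. Beyond the 6 genes, those named are the called genes of each list (at most 4), the 10 called genes of highest absolute median ratio per direction, and the 3 most alike genes. VEGFC, VEGFD, CCBE1, CCL19, CCR7, VLDLR, LRP8 and genes described as not called or as leading a cluster were named after their values were seen. The call rule was tested on simulated data. Alternatives covered the pseudocount, centring, cell calling, doublets, clustering, minimum cells and counts, and each library left out.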

Additional observations from a re-analysis of the deposited data

Results flagged for a closer look

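Barcodes outside the called cells also carried the 6 genes. When every barcode of at least 1000 UMIs was taken as a cell, 212 barcodes that lay under the library thresholds joined the lymphatic cluster, 94, 60, 10 and 48 of them in libraries 1 to 4, with a median of 2162.5 UMIs. Summed over libraries they held PROX1 at 1035 CPM, LYVE1 at 2023, MMRN1 at 3301, CCL21 at 11955, FLT4 at 444 and RELN at 544 CPM. In that setting, 87 pericyte and smooth muscle-like cells, which formed no cluster of their own among the called cells, held 3 PROX1, 1 CCL21 and 2 FLT4 UMIs and none of LYVE1, MMRN1 or RELN.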

How the results depend on the processing

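All 6 genes were called higher in lymphatic than in blood vessel cells under each alternative run. Of the 109 alternative values computed, 98 moved by less than the spread between libraries, or, for shares and summed levels, stayed within the counting interval, and 0 changed direction. With a pseudocount of 10 CPM the median log2 ratio was 7.93 for MMRN1, 9.80 for CCL21 and 5.45 for RELN against blood vessel cells, and 5.49 for LYVE1 in macrophages, since the larger pseudocount shrinks ratios on few counts. PROX1 was at 6.71 in place of 8.49 under it, within the spread between libraries. With a minimum of 1000 UMIs the median of FLT4 was 3.80 in place of 4.90, and lymphatic cells made up 4.05% of library 1 in place of 3.20%; the cause was not tested. Without the 5% of cells of highest doublet score, the median of PROX1 was 10.04 in place of 8.49. That shift is smaller than the spread between libraries, but 10.04 lies just above the highest library value of 10.02. With all 6 genes kept in the clustering, or with a resolution of 2, both classes were found again. Ratios were formed within each library, but no label ties a library to an animal or a replicate number, and no test was run. The main limits are the 15 lymphatic cells of library 3, the 6 blood vessel cells of library 4, and libraries that cannot be tied to an animal or age.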

Other observations

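Several classes fell into clusters that held cells of libraries 1 and 4 or of libraries 2 and 3. Beta-like cells formed 1 cluster with 293, 5, 5 and 529 cells of libraries 1 to 4 and another with 2, 281, 403 and 4. Lymphatic and blood vessel cells each stayed in 1 cluster of all 4 libraries, but their sub-clusters did not all do so. A lymphatic sub-cluster of 41 cells, 40 of library 1, had CCL21 at 35486 CPM and was led by FRZB, CBLN4 and CREG2. One of 29 cells, 26 of library 1, had CCL21 at 5563 CPM and was led by ICAM1, an adhesion receptor for leukocytes. One of 44 cells, 43 of library 4, had LYVE1 at 4285 CPM and was led by LOC102188618 and SDS. In the blood vessel cells, 6 cells of library 2 were led by COL8A1, CXCL10 and PKHD1L1. They held 7 PROX1 UMIs (106 CPM, 42.7 to 219) and 3 RELN UMIs (45.5 CPM, 9.38 to 133), with 0 CCL21 and 0 MMRN1 UMIs. Another 8 blood vessel cells, 7 of library 2, were led by acinar genes such as PRSS2 and CLPS. They held 11 PROX1 UMIs (71.0 CPM, 35.5 to 127).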
